A study of Mus musculus with 45 samples.

Results

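The RNA splicing regulators described here are 56 genes, taken by name from the 23575 genes of the expression table, with the 4302 of 276608 transcript models that the authors' classification assigns to them. They comprise 10 SR proteins, 9 SR-related proteins and U2AF subunits, 13 hnRNPs, 20 regulators from families known for tissue-dependent splicing, and 4 other RNA-binding proteins. The 20 are not all restricted in these cells: Ptbp1 was at 346 to 2017 CPM, Celf1 at 50.1 to 231 CPM and Rbfox2 at 31.1 to 108 CPM over the 45 libraries. The study followed mouse neural progenitor cells as they were reprogrammed to induced pluripotent stem cells, and sequenced full-length cDNA on Oxford Nanopore flow cells. It holds 45 libraries, 22 on R9 flow cells from poly(A)-enriched RNA without PCR and 23 on R10 flow cells from total RNA with PCR. Gene levels are in CPM, reads scaled to the library's total of gene reads, and transcript levels are in TPM, which also corrects for transcript length.

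Progenitors were derived from the O4G embryonic stem cell line, which carries an Oct4-GFP reporter, and were kept in NPC medium. They were wild type, OKMS-Luciferase-AS or OKS-Luciferase-AS. The last pair carry a doxycycline-inducible cassette of reprogramming factors, which by the usual meaning of the letters are Oct4, Klf4, Myc and Sox2, without Myc in OKS. Each chemistry had 4 progenitor libraries, 2 of wild type and 1 of each cassette line. Reprogramming cells were moved to FBS-LIF with doxycycline and collected on R9 at days 2, 4, 6, 10, 14 and 20 from both cassette lines. On R10 they were collected at days 2, 4, 6, 10 and 18 from OKMS and at days 2, 6 and 18 from OKS. Wild-type cells in the same medium were collected at day 2, in 1 R9 and 2 R10 libraries. Cells kept in 2i-LIF, a medium with inhibitors of MEK and GSK3, were collected at day 14 (OKMS, R9), day 20 (both lines, R9) and day 18 (both lines, R10). Embryonic stem cells, wild type in 2i-LIF, came from O4G, R1 and R1-Clone3, with 2 R9 and 7 R10 libraries. Each cassette genotype is a stably transfected line, so a difference between OKMS and OKS cells cannot be told apart from a difference between lines. The labels do not say that libraries of a condition came from separate cultures, so every p-value here measures the spread between libraries, which may be technical. In the time course and the day 2 test of the factors, OKMS and OKS libraries stand in as replicates. There the spread includes differences between the lines. In OKMS against OKS it includes change of their difference between days.

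Splicing regulators bind pre-mRNA and help or hinder the spliceosome at nearby splice sites. SR proteins, which carry domains rich in arginine and serine, mostly favour the use of exons they bind, whereas hnRNPs often oppose it. Many SR and hnRNP genes contain exons or introns whose altered splicing sends the transcript to nonsense-mediated decay, and so limit their own levels. A smaller group, among them the ESRP proteins of epithelia, the NOVA and neuronal ELAVL proteins of neurons, and the MBNL, CELF, RBFOX, QK and PTBP families, are present at different levels between cell types. MBNL proteins are known to oppose an exon pattern typical of pluripotent cells.

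Depth ranged from 447990 to 1390424 gene reads per library on R9 and from 566599 to 4236442 on R10. A count of 0 allows a level of up to 3 reads, which is 2.16 to 6.69 CPM on R9 and 0.707 to 5.29 CPM on R10, for counting error alone. All 6 pluripotency markers and 5 of the 6 progenitor markers listed followed the labels without overlap, with Pou5f1 at 0 to 3.87 CPM in the 8 progenitor libraries and 856 to 1402 CPM in the 9 stem cell libraries, and Nes, a progenitor filament, at 193 to 384 against 3.37 to 21.4 CPM. Sox1, the remaining progenitor marker, went the other way, with no reads in any progenitor library and 0.373 to 1.45 CPM in R10 and 3.72 to 10.4 CPM in R9 stem cells. The stem cell libraries stand apart in 1 further way. On R10, 10 libraries carry a library name in their label: the 4 of day 18 and 6 stem cell libraries that bear an n number. The other 13 R10 libraries carry none, and 1 stem cell library, from R1 and without an n number, is among them. This unnumbered R1 library is therefore the single R10 stem cell library outside the named set.

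Stem cells and progenitors differed in members of every role on R10. There, 21 of the 53 members tested (39.6%) were called, at an adjusted p under 0.05 and a difference of at least 1 on the log2(CPM + 1) scale, in limma over all 15415 genes that passed the filter on low values. Of all those genes 45.8% were called, so the members' share is not above the background. Members were higher in 10 cases, beside 22.4% of all genes higher, and lower in 11, beside 23.5% lower. The median difference was 0.27 over the members tested and 0.01 over all genes. Centring each library on its median moved the median of all genes by 0.23, and then 11 members were higher and 7 lower. R9 gave 10 of 53 members called (18.9%) against 36.0% of all genes, with 3 higher beside 17.6% of all genes and 7 lower beside 18.4%. After centring, which moved the R9 median by 0.16, 6 were higher and 7 lower. Esrp1, Elavl3 and Srrm4 were under the filter in both chemistries. By role on R10, 4 of the 17 regulators of tissue-dependent splicing tested were higher and 7 lower. Among the 10 SR proteins 0 were higher and 1 lower, and among the 13 hnRNPs 2 were higher and 0 lower. SR-related and U2AF genes had 3 of 9 higher and 2 lower, and the 4 other RNA-binding proteins 1 higher and 1 lower. The roles were not tested against each other.

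On R10 the largest decreases in stem cells were in Celf2 and Nova1, regulators known from neural cells. Such regulators went both ways: Elavl2, a neuronal ELAVL gene, had the largest R10 difference of all members, 3.72 higher in stem cells. Ptbp2, the neural PTB paralogue, differed by -0.93 on R10 and -0.94 on R9, under the size required. Neural regulators were not tested as a group. Celf2, a CUG-binding regulator of neural and muscle splicing, was at 35.1, 39.7, 50.2 and 30.7 CPM in the 4 R10 progenitor libraries and at 0.747 to 4.48 CPM, median 3.61, in the 7 stem cell libraries. All stem cell libraries lay below all progenitor libraries, and the mean fell from 38.9 ± 8.35 (SD, n = 4) to 3.11 ± 1.28 (SD, n = 7), a log2 difference of -3.34 (SE 0.29, limma adjusted p = 6.54e-08). On R9 Celf2 was at 60.2, 29.0, 28.3 and 50.6 CPM in progenitors against 0.947 and 0 CPM in stem cells. That is 126 reads against 1 read, a ratio of 86.1 with an exact 95% counting interval of 15.2 to 3429. Nova1, a neuronal regulator that binds YCAY clusters, was at 24.1 to 37.8 CPM in R10 progenitors and 1.34 to 3.36 CPM in stem cells. Its mean fell 13.3 times on R10 (log2 difference -3.30, SE 0.23, limma adjusted p = 4.14e-09) and 7.27 times on R9 (log2 difference -2.60, limma adjusted p = 0.00133). The counts of these genes are from bulk RNA, where fewer cells of a type and less RNA per cell cannot be told apart.

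Mbnl1 was at 131, 108, 98.1 and 85.8 CPM in R10 progenitors and 10.5 to 26.5 CPM in stem cells, without overlap. The log2 difference was -2.51 on R10 (SE 0.24, limma adjusted p = 2.26e-07) and -3.28 on R9 (SE 0.27, limma adjusted p = 0.000229). Its paralogue Mbnl2 was called on R9 (-1.90, limma adjusted p = 0.0301) and on R10 had a difference of -0.88 that was under the size required. Qk, which regulates splicing in glia and progenitors, fell from 187 ± 63.4 to 65.0 ± 10.9 CPM on R10 and from 186 ± 7.75 to 68.0 ± 10.5 CPM on R9, with limma adjusted p = 9.14e-06 and 0.000289. Elavl4, a neuronal RNA-binding protein, was at 2.20, 5.26, 6.35 and 4.02 CPM in R10 progenitors, at 1.12 CPM in the unnumbered R1 library, at 0.260 CPM in 1 other stem cell library and at 0 in the remaining 5. On R9 it was not called (-1.42, limma adjusted p = 0.338), with 17.4, 0, 1.35 and 3.37 CPM in progenitors and 0 and 0.931 CPM in stem cells. Khdrbs3, Nova2 and Hnrnpll likewise passed in 1 chemistry: Khdrbs3 on R9 (-1.30), Nova2 (-1.17) and Hnrnpll (-1.11) on R10. Hnrnpll was at 64.8 to 80.4 CPM in R10 progenitors, at 25.9 to 36.8 CPM in numbered stem cells and at 57.5 CPM in the unnumbered R1 library.

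The members higher in stem cells included a neuronal ELAVL gene and an epithelial regulator. Elavl2 had 3 reads over the 4 R10 progenitor libraries and 352 over the 7 stem cell libraries, where it lay at 9.34 to 21.5 CPM, a ratio of 56.4 with a counting interval of 19.2 to 275. R9 progenitors had no reads of it in any of 4 libraries, while both R9 stem cell libraries had some, 12.3 CPM in O4G and 14.9 CPM in R1. Against the 3 reads that a count of 0 allows over the group, this is at least 14.1-fold higher. Esrp2, which promotes the epithelial splicing pattern, had 1 read over the R10 progenitors and lay at 1.87 to 9.66 CPM in stem cells, with the unnumbered R1 library lowest. Its limma adjusted p was 2.15e-06 on R10 and 0.000559 on R9. Epithelial markers were higher in the same libraries: the summed CPM of Cdh1, Epcam, Krt8 and Krt18 was 0 to 7.01 in R10 progenitors and 111 to 308 in stem cells, and their part in the Esrp2 result was not tested. Ptbp1, an exon repressor of non-neuronal cells, rose from 565 ± 69.9 to 1745 ± 390 CPM on R10 (log2 difference 1.59, SE 0.19, limma adjusted p = 2.01e-06). On R9 Ptbp1 differed by 0.80 (limma adjusted p = 0.0049), which is under the size required. Ptbp3 was higher on R10 by 1.35 (limma adjusted p = 6.30e-05), with 22.9 to 46.6 CPM in progenitors, 78.2 to 109 CPM in numbered stem cells and 52.3 CPM in the unnumbered R1 library.

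**Figure D1:**
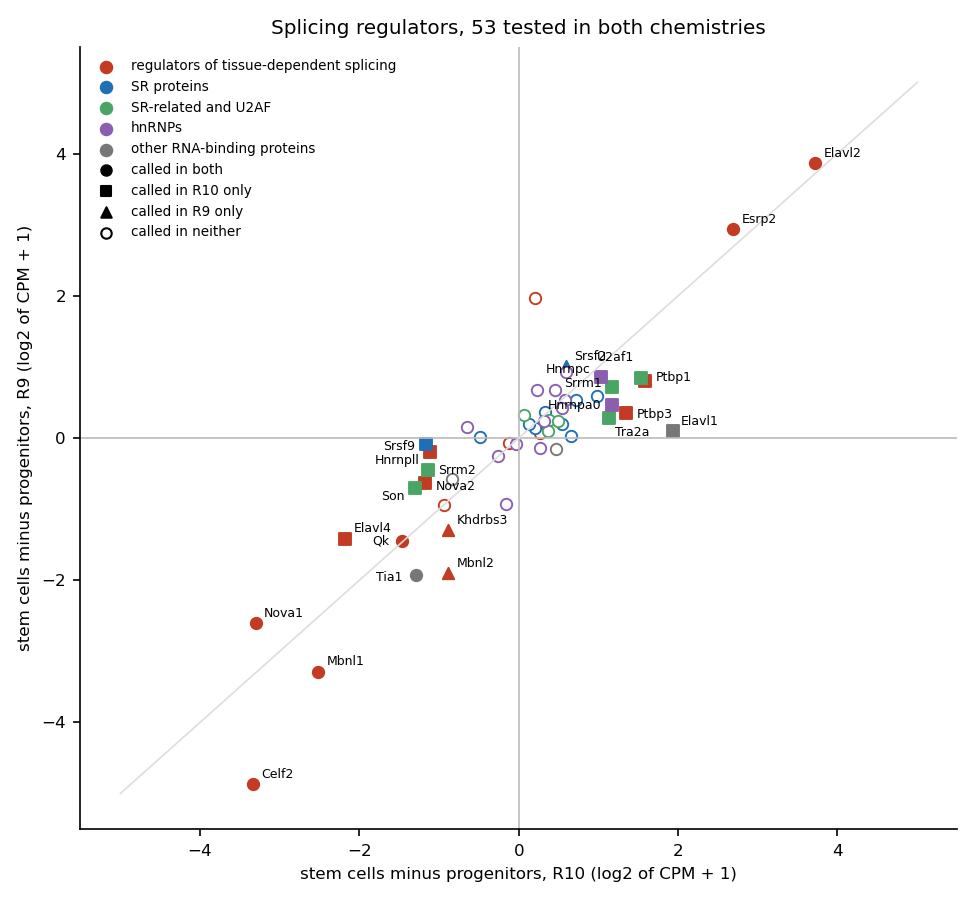
Difference between stem cells and progenitors in log2(CPM + 1) for the 53 members tested in both chemistries, R10 on the horizontal and R9 on the vertical axis; colour gives the role and the symbol gives the chemistry in which a member was called. Celf2, Mbnl1, Nova1, Qk and Tia1 lie low and Elavl2 and Esrp2 lie high in both, while Elavl1 lies at 1.93 on R10 and 0.09 on R9.

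Calls were shared by R10 and R9 in the same direction for 7 members: Celf2, Elavl2, Esrp2, Mbnl1, Nova1, Qk and Tia1, which is 33.3% of the members' R10 calls and 70.0% of their R9 calls. Over all genes the shared calls made up 62.6% of the R10 calls and 78.0% of the R9 calls. The plot of both chemistries shows these 7 at the ends of the diagonal. The test of the difference between chemistries called 2 of 53 members, beside 3.63% of 18341 genes. Elavl1 differed by -1.84 (SE 0.51, limma adjusted p = 0.0476, R9 minus R10) and Srsf9 by 1.08 (SE 0.28, limma adjusted p = 0.0354). A member called in 1 chemistry and not in the other is otherwise not shown to differ between them.

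Elavl1, the ubiquitous ELAVL protein that stabilises AU-rich mRNAs, was at 25.9 to 30.1 CPM in R10 progenitors, at 113 to 171 CPM in the 6 numbered stem cell libraries and at 32.1 CPM in the unnumbered R1 library. The 4 named day 18 libraries were at 111, 161, 115 and 147 CPM, while unnamed R10 libraries of days 2 to 10 lay at 14.8 to 28.5 CPM. On R9 progenitors were at 86.9, 118, 67.3 and 80.9 CPM and stem cells at 112 and 76.3 CPM, which overlap. On R10 the high values of Elavl1 thus fell in the named libraries, those of day 18 included. Across the members, 7 were higher in all 10 named R10 libraries than in the other 13 (Ptbp1, Srrm1, Hnrnpa0, Hnrnpc, U2af1, Elavl1 and Elavl2) and 2 were lower (Srrm2 and Son). Over the 15415 genes tested, 1.28% were higher in all named libraries and 2.37% lower. All 9 are among the 21 calls. Of the 21, the unnumbered R1 library lay inside the range of the numbered stem cell libraries in 3, inside the progenitor range in 2 and in neither in 16. With that library as the whole stem cell arm, assuming that it varies like the progenitors, 8 of 53 members were called, of which 5 were among the 21 in the same direction: Celf2, Elavl2, Esrp2, Mbnl1 and Nova1. With that library 29.1% of 17534 genes were called, and the calls shared in direction with R10 made up 59.9% of all genes' R10 calls and 82.8% of those with that library, against 23.8% and 62.5% in the members. Qk and Tia1 were also called on R9, where no library carries such a name, and their unnumbered R1 values lay inside the numbered range. Among the other 14 calls that library lay at different places: its 360 CPM of Srrm1 stood between the progenitors' 167 to 238 CPM and the numbered stem cells' 445 to 506 CPM, whereas its Son and Srrm2 lay inside the progenitor range. In the 6 numbered stem cell libraries the named set and the stem cell state cannot be told apart, and this applies to every R10 call between stem cells and progenitors.

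**Figure D2:**
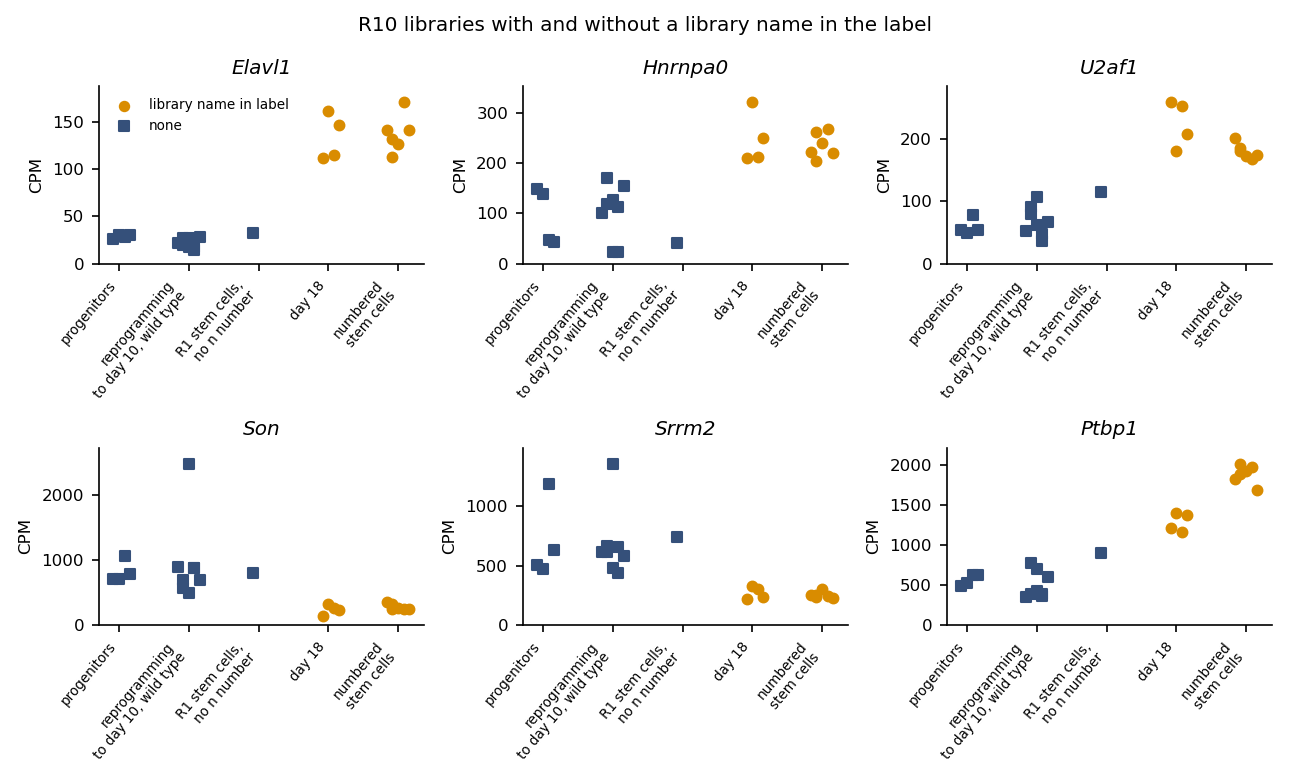
CPM of 6 members in the 23 R10 libraries, grouped on the horizontal axis by cell state; orange circles are the 10 libraries with a library name in the label and blue squares the 13 without. The unnumbered R1 stem cell library lies at 32.1 CPM for Elavl1, just above the progenitors, at 41.1 CPM for Hnrnpa0, just below them, and at 894 CPM for Ptbp1 it lies between progenitors and numbered stem cells.

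Of the 10 SR proteins 1 was called in each chemistry, and of the 9 SR-related and U2AF genes 5 were called on R10 and 0 on R9, beside 45.8% of all genes on R10 and 36.0% on R9. The SR proteins' share was below the background in both chemistries, and the 5 of 9 is near it. Of the 10 SR proteins 8 had a difference above 0 on R10 and 9 on R9, with medians of 0.44 and 0.20. Srsf2, an SR protein that moderates its own level through decay-bound transcripts, was called on R9, where it rose from 309 ± 32.9 to 621 ± 22.8 CPM (limma adjusted p = 0.00112), and differed by 0.59 on R10. Srsf9 fell on R10 from 96.9 ± 11.5 to 43.5 ± 11.6 CPM (limma adjusted p = 3.49e-05) and on R9 differed by -0.08. On R10 its numbered stem cell libraries were at 29.5 to 47.0 CPM and the unnumbered R1 library at 66.1 CPM. U2af1, which reads the 3′ splice site, was at 58.9 ± 13.4 CPM in R10 progenitors, 169 to 203 CPM in numbered stem cells and 115 CPM in the unnumbered R1 library. Tra2a, a partner of SR proteins, rose by 1.13 on R10 (limma adjusted p = 1.57e-06), to 150 to 170 CPM in numbered stem cells and 123 CPM in the unnumbered R1 library. Son and Srrm2, large nuclear speckle proteins, were called lower on R10 (-1.30 and -1.14), but the unnumbered R1 library held 806 CPM of Son and 736 CPM of Srrm2, inside the progenitor ranges of 704 to 1061 and 474 to 1189 CPM. On R9 the difference in Son was -0.70 (limma adjusted p = 0.005).

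The hnRNPs called on R10 were Hnrnpc, which rose from 394 ± 24.8 to 806 ± 46.1 CPM (limma adjusted p = 6.65e-08), and Hnrnpa0. For Hnrnpc the unnumbered R1 library was at 730 CPM, nearer to the numbered stem cells' 793 to 888 CPM than to the progenitors' 362 to 417 CPM. Hnrnpa0 was at 149 and 139 CPM in the OKMS and OKS progenitors and at 47.3 and 43.9 CPM in the wild-type ones. R9 progenitors of the same genotypes showed no such split, with 167 and 166 CPM in wild type, 137 CPM in OKMS and 159 CPM in OKS. Its stem cell libraries were at 204 to 269 CPM when numbered and at 41.1 CPM in the unnumbered R1 library, and with that library alone the difference was -0.97. None of the 13 hnRNPs was called by limma on R9, beside 36.0% of all genes. Their largest R9 differences were 0.93 in Hnrnpd, -0.93 in Hnrnpr and 0.85 in Hnrnpc, which went from 512 to 924 CPM. Their limma adjusted p were 0.000667, 0.00112 and 0.000959, and all were under the size required. An unadjusted p under 0.05 was reached there by 27 of 53 members of all roles and by 7979 of 15746 genes. Tia1, which binds U-rich sequence behind weak 5′ splice sites, fell from 91.9 ± 5.19 to 38.5 ± 12.4 CPM on R10 and from 83.6 ± 9.48 to 22.1 ± 8.90 CPM on R9 (limma adjusted p = 6.43e-05 and 0.00129). The unnumbered R1 library, at 45.9 CPM, lay inside the numbered range for Tia1.

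Some rows of the gene table join a member to its neighbour and are not counted in the member's level. The highest was Hnrnpm with March2, which had means of 31.8 and 116 CPM in R10 progenitors and stem cells, and 25.3 and 19.2 CPM on R9, while Ech1 with Hnrnpl had 5.51 and 12.1 CPM on R10. Rows antisense to members are listed apart from them. The row antisense to Srsf6 was at 32.7 CPM in R10 progenitors and 2.08 CPM in stem cells, and that antisense to Nova2 at 16.8 and 2.06 CPM. The row antisense to Elavl1 was at 31.8 and 32.6 CPM on R10 and at 27.5 and 53.8 CPM on R9.

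Other genes of the pathway were read from lists of spliceosome core genes, kinases of SR proteins and further RNA-binding regulators. On R10, 8 of 65 core genes were higher in stem cells and 1 was lower, beside 22.4% and 23.5% of all genes. Dhx16, an RNA helicase of spliceosome activation, had the largest difference at 4.10, with means of 20.1 and 356 CPM, followed by Cdc5l at 2.01 and Bcas2 at 1.40. Rbmx was the one lower, at -2.16. R9 gave 7 higher and 1 lower, beside 17.6% and 18.4% of all genes, with Dhx16 at 3.02, Cdc5l at 1.93 and Rbmx at -2.29. Of 7 kinases tested none was called on R10 and Prpf4b was lower on R9 (-1.23). Of 35 further regulators on R10, 4 were higher, led by Rbm47 (1.74), and 6 lower, led by Rbm24 (-3.38). All these differences are on the log2(CPM + 1) scale, with calls at limma adjusted p under 0.05.

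Along the R9 time course, 5 of 56 members were called (8.93%) beside 10.7% of 19357 genes, with 3 higher beside 5.50% and 2 lower beside 5.24%. The test compared days 2 to 20 in FBS-LIF with doxycycline with day 0, with OKMS and OKS as a block, and the direction is that of the largest difference from day 0. Celf2 had a largest difference of -3.32 at day 20 (limma adjusted p = 0.0219). In OKMS cells Celf2 was at 28.3 CPM at day 0 and then 42.9, 16.7, 5.46, 7.03, 4.22 and 1.23 CPM at days 2, 4, 6, 10, 14 and 20. In OKS cells it was at 50.6 CPM and then 52.1, 94.4, 75.0, 33.5, 19.9 and 5.75 CPM, so at each day from 2 the OKMS library was the lower. Nova1 had a largest difference of -4.76 at day 20 (limma adjusted p = 0.0387), when both libraries had no reads. Elavl2 had one of 3.28 at day 20 (limma adjusted p = 0.0212): its first reads came at day 10 in both lines, at 4.22 and 2.23 CPM, and it reached 6.16 and 12.2 CPM at day 20. The day 10 value in OKS cells is 1 read. At day 4 a count of 0 allows 6.26 CPM in OKMS and 2.86 CPM in OKS cells, so the day of its onset is not fixed. Elavl3, a neuronal ELAVL gene, rose by 2.66 at day 20 (limma adjusted p = 0.026), where it stood at 4.93 CPM in OKMS and 5.75 CPM in OKS cells, above the levels of 3.69 and 2.16 CPM that 3 reads give in these libraries. It had no reads in either R9 stem cell library. Of 7 listed neuron markers, the 6 found in the table summed to 260 to 904 CPM in the OKMS libraries of this medium and 144 to 998 CPM in the OKS libraries. The sum mixes markers that went opposite ways: from R9 progenitors to stem cells Map2 was at 239 to 376 and 0 to 0.947 CPM, and Stmn2 at 0 to 4.01 and 241 to 289 CPM. Their part in the Elavl3 result was not tested.

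Mbnl2 had its largest difference at day 2, 1.67 above day 0 (limma adjusted p = 0.0322), with 22.9 CPM in OKMS and 94.4 CPM in OKS cells at day 0, 98.3 and 233 CPM at day 2 and 23.4 and 17.2 CPM at day 20. The sign of that largest difference turned to -2.05 without the OKMS library of day 20 and to -1.71 without the OKMS progenitors. Qk had a difference of -1.85 and Mbnl1 of -2.53 at day 20, with limma adjusted p = 0.0718 and 0.119. Without day 20 the count of calls was 0 (with it 13 of 56 members and 5521 of 19357 genes had an unadjusted p under 0.05), and without single libraries it was 1 to 6. Centring moved the median of all genes by -1.08 in this comparison and gave 3 higher and 5 lower. edgeR on the recovered reads called 13, of which 4 were higher and 9 lower, and DESeq2 called 7, of which 2 were higher and 5 lower.

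**Figure D3:**
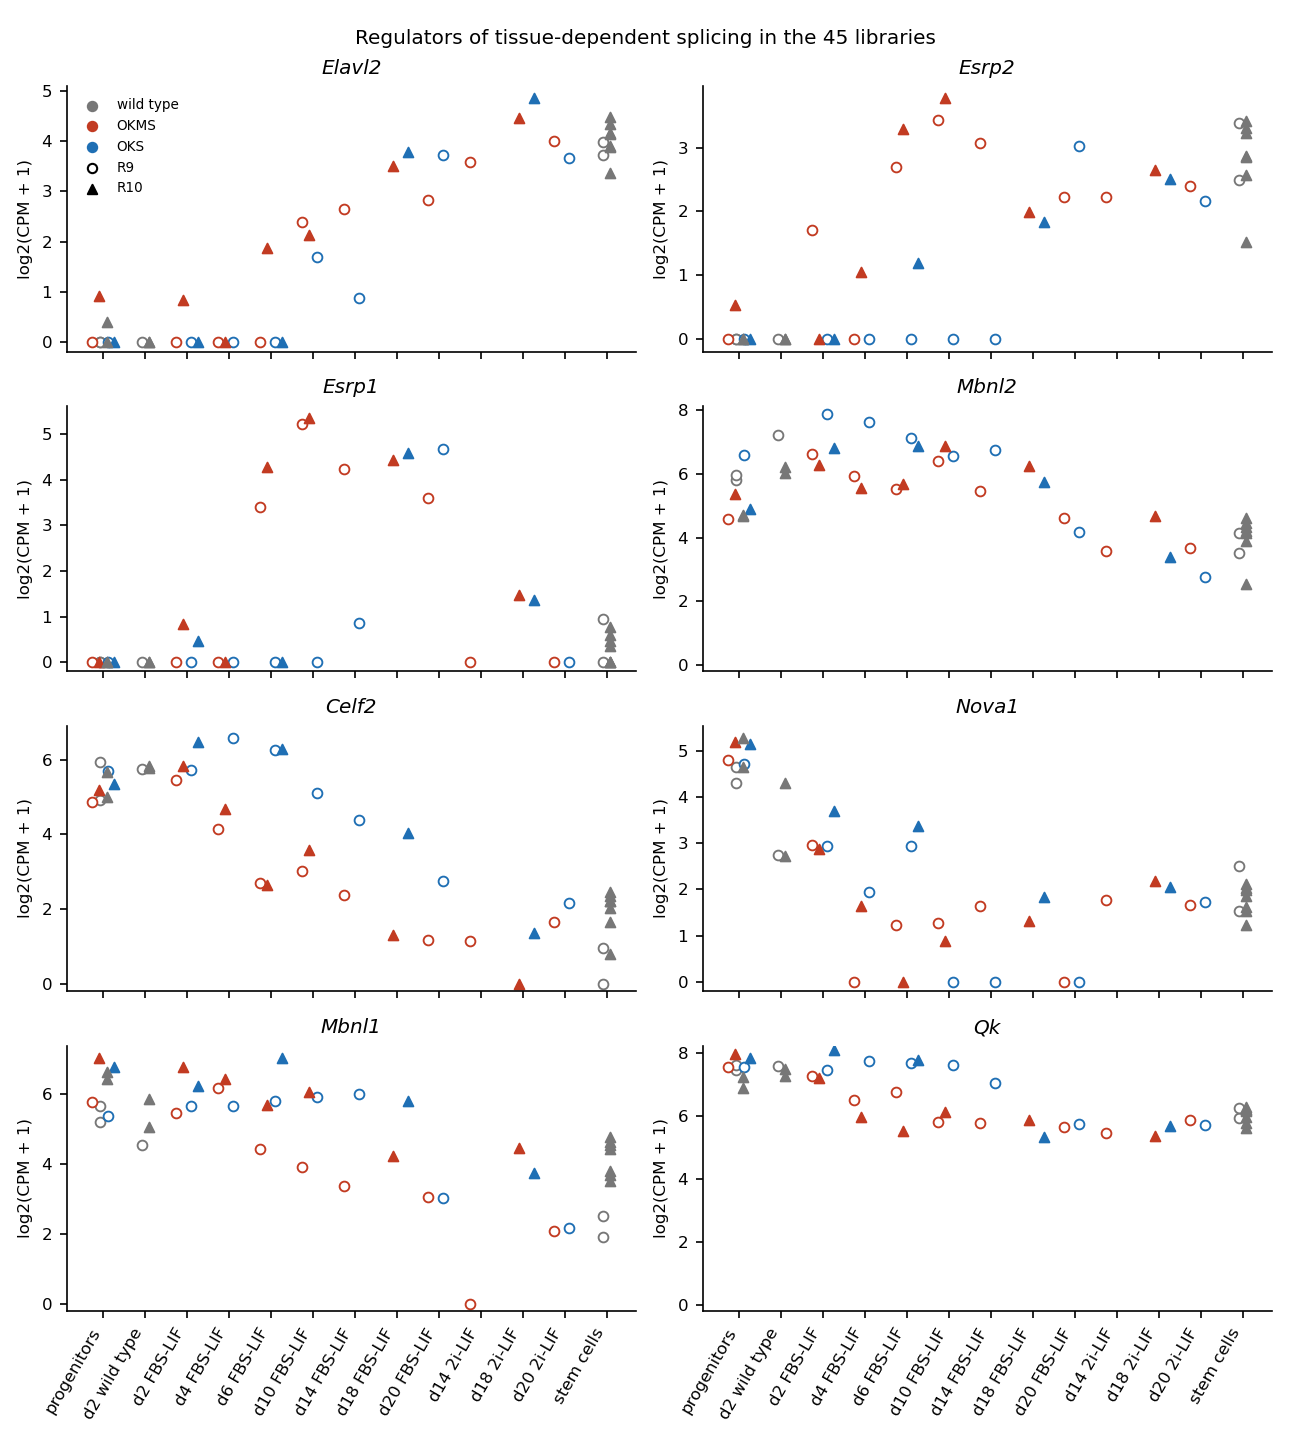
Level of 8 regulators of tissue-dependent splicing, in log2(CPM + 1), in the 45 libraries by condition and day; colour gives the genotype, open circles are R9 and filled triangles R10. At day 20 on R9 in FBS-LIF, Celf2 is at 1.23 CPM in OKMS and 5.75 CPM in OKS cells, Nova1 has no reads in either line and Elavl2 is at 6.16 and 12.2 CPM. Esrp1 in FBS-LIF is high from day 6 in OKMS and from day 18 in OKS cells, and is low in 2i-LIF and in stem cells.

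The OKMS and OKS cassettes were compared over days 2 to 20 in the same medium on R9, with the day as a block. Called were 6 of 52 members (11.5%) beside 18% of 14277 genes, with 5 higher in OKMS beside 6.93% of all genes and 1 lower beside 11%. The median difference was 0.39 over the members and -0.11 over all genes. All 10 SR proteins (median 0.60) and 12 of 13 hnRNPs (median 0.59) had a difference above 0. The 65 spliceosome core genes had a median of 0.52, so this was not particular to SR proteins. Srsf3, a small SR protein, was 1.11 higher in OKMS (SE 0.21, limma adjusted p = 0.00271), with 594 to 1117 CPM in OKMS libraries and 214 to 793 CPM in OKS libraries. OKMS was the higher at every one of the 6 days. On R10, which this test did not use, Srsf3 was higher in OKMS at day 2 (801 and 320 CPM) and day 6 (1045 and 429 CPM) and lower at day 18 (273 and 1026 CPM). Srsf6 was 1.01 higher and Hnrnpa1, an hnRNP that often represses exons, 1.21 higher (limma adjusted p = 0.00482 and 0.00166). On R10 Srsf6 was at 217 CPM in OKMS and 153 CPM in OKS cells at day 2, at 137 and 154 CPM at day 6 and at 54.9 and 179 CPM at day 18. Esrp2 was 1.68 higher (limma adjusted p = 0.047): it was detected in 5 of 6 OKMS libraries, at 2.26 to 9.85 CPM, and in 1 of 6 OKS libraries, at 7.19 CPM on day 20. Mbnl3 was 1.66 higher (limma adjusted p = 0.0131). Celf2 was 1.99 lower in OKMS (limma adjusted p = 0.00273). Epithelial markers summed to 12.4 to 1044 CPM in these OKMS libraries and 1.91 to 1063 CPM in the OKS ones, and their part in the Esrp2 difference was not tested.

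Esrp1, the paralogue of Esrp2, had no reads in the 8 progenitor libraries and at most 0.931 CPM in the 9 stem cell libraries. In OKMS cells in FBS-LIF with doxycycline it stood at 9.55, 36.6, 17.9 and 11.1 CPM at days 6, 10, 14 and 20 on R9, and at 18.5 and 39.9 CPM at days 6 and 10 on R10. OKS cells had none to day 10 on R9, 0.827 CPM at day 14 and 24.4 CPM at day 20. At day 18 on R10 both lines were high, at 20.8 CPM in OKMS and 23 CPM in OKS. The time course test did not call it (4.13 at day 20, limma adjusted p = 0.182).

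In 2i-LIF against FBS-LIF with doxycycline, over 5 pairs of the same line, day and chemistry, 3 of 55 members were called (5.45%) beside 12.3% of 14935 genes. None was higher, beside 5.95% of all genes, and 3 were lower, beside 6.32%. Esrp1 was at 17.9, 11.1, 24.4, 20.8 and 23 CPM in FBS-LIF and at 0, 0, 0, 1.76 and 1.56 CPM in 2i-LIF, in the same order of pairs. All 5 pairs went the same way, with a log2 difference of -3.74 (SE 0.46, limma adjusted p = 3.17e-05). Mbnl2 was at 43.3, 23.4, 17.2, 75.7 and 52.5 CPM in FBS-LIF and 11, 11.8, 5.82, 24.7 and 9.39 CPM in 2i-LIF, lower in all 5 pairs (-1.63, limma adjusted p = 0.00106). Mbnl3 was lower in all 5 (-1.86, limma adjusted p = 0.0171), from 2.56 to 8.62 CPM to 0 to 1.56 CPM. A count of 0 allows 3.22 to 5.29 CPM in these 2i-LIF libraries, so the Mbnl3 call rests on few reads. Doxycycline is named for FBS-LIF and not for 2i-LIF, so medium and drug cannot be told apart. The 2 R10 pairs alone gave 0 calls and edgeR gave 6, all lower.

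At day 18 in 2i-LIF, 2 libraries were compared with the 6 numbered stem cell libraries, all in the named R10 set. Of 54 members 6 were called (11.1%) beside 12.2% of 15571 genes, with 2 higher beside 5.59% and 4 lower beside 6.59%. Both higher members rest on 1 read in each library, which is 1.76 CPM in OKMS and 1.56 CPM in OKS cells. Esrp1 had that level against 0 to 0.707 CPM in stem cells (1.12, limma adjusted p = 0.0386), and Elavl4 had it against 0 to 0.260 CPM (1.36, limma adjusted p = 0.00977). Ptbp3, at 42.3 and 37.5 CPM, was below the stem cells' 78.2 to 109 CPM (-1.18, limma adjusted p = 0.000776), and Ptbp2, the neural PTB paralogue, differed by -1.17 (limma adjusted p = 0.014). Celf2 (-1.47) and Mbnl3 (-1.87) were also lower, with no reads in OKMS and 1 read in OKS cells. Their means over the 7 R10 stem cell libraries were 3.11 and 5.12 CPM. A count of 0 allows 5.29 CPM in the OKMS and 4.69 CPM in the OKS library, so both calls rest on few reads. A minimum of 5 CPM left 3 calls, all lower, and edgeR and DESeq2 gave 1 each, also lower.

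The change of medium with doxycycline, called the medium below, was read in wild-type progenitors on R10. These carry no cassette and were read after 2 days in FBS-LIF with doxycycline. Medium, drug and time in culture cannot be told apart here. Called were 13 of 51 members (25.5%) beside 26.8% of 14688 genes, with 1 higher beside 14.9% of all genes and 12 lower beside 11.9%. Centring moved the median of all genes by -0.15 and gave 1 higher and 19 lower. The hnRNPs accounted for 7 of the 12. Hnrnpab, which binds AU-rich and G-rich RNA, was at 295 and 325 CPM before and 68.9 and 63.9 CPM after (-2.21, SE 0.20, limma adjusted p = 0.00252). Hnrnpd was at 59.1 and 47.3 against 11.4 and 11.2 CPM (-2.13, limma adjusted p = 0.00566). Hnrnpa1 was at 892 and 553 against 184 and 158 CPM, and Srsf3 at 734 and 859 against 210 CPM in both treated libraries. Elavl4 went from 6.35 and 4.02 CPM to no reads. Mbnl2 was the member higher, from 25.4 and 24.7 to 74.0 and 64.9 CPM (1.43, limma adjusted p = 0.0102). Core spliceosome genes had 1 of 65 higher and 16 lower, led by Snrpf (-2.28) and Snrpd1 (-2.21), and of the kinases Clk1 (1.71) and Clk4 (1.49) were higher. Astrocyte markers summed to 211 and 218 CPM before and to 1403 and 3288 CPM after, and their part in these results was not tested. Without any 1 of the 4 libraries 0 or 1 member was called. The 2 treated libraries, which also serve the comparison of factors below, differed from each other more than other R10 replicate pairs did. Their chi-square per gene was 29.5, against 10.6 for the wild-type progenitors and 2.30 to 3.09 for stem cell pairs. On R9, with 1 treated library, 0 were called, while Hnrnpab stood at 241 CPM against 964 and 864 CPM and Hnrnpd at 134 against 459 and 393 CPM.

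The factors were read at day 2 on R10, OKMS and OKS together against wild type in the same medium. Called were 2 of 51 members (3.92%) beside 0.740% of 15402 genes, both higher, beside 0.714% higher and 0.0260% lower over all genes. Hnrnpab was at 571 and 232 CPM in the OKMS and OKS cells against 68.9 and 63.9 CPM (2.44, SE 0.47, limma adjusted p = 0.0479), and Hnrnpa0 at 154 and 100 against 22.7 CPM in both wild-type libraries (2.40, limma adjusted p = 0.0307). Before treatment on R10, Hnrnpab was at 560 and 565 CPM in cassette progenitors and 295 and 325 CPM in wild type. R9 progenitors overlapped, at 796 and 990 CPM with a cassette and 964 and 864 CPM in wild type. The lines and the factors cannot be told apart here. Without any 1 library, and on R9, 0 members were called.

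Transcript models split each member's TPM between coding and non-coding forms. Of the members' models 466 (10.8%) are classified non-coding, against 16.4% of all models, and 1005 (23.4%) are predicted targets of nonsense-mediated decay, against 15.0%. The share of a gene's TPM in non-coding models differed between R10 stem cells and progenitors in 12 of 40 members tested, beside 17.0% of 4981 genes, at a limma adjusted p under 0.05 and at least 10 percentage points. It was higher in 8, beside 11.4% of all genes, and lower in 4, beside 5.60%. Leaving out 1 library at a time gave 6 to 12 members called. On R9 limma called 0 of 40 members, beside 1.97% of 4920 genes, and 1 member and 490 genes had an unadjusted p under 0.05. With the unnumbered R1 library as the stem cell arm it called 1 of 40, Hnrnpf, which is not among the 12, beside 3.76% of 4898 genes.

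The largest of these shares rested on single short models. Hnrnpl had 61.8 to 83.8% of its TPM in non-coding models in R10 progenitors and 16.2 to 33.7% in numbered stem cells, but 86.3% in the unnumbered R1 library (-37.5 points, limma adjusted p = 0.049). A 509-base model of 3 exons made up 73.7% of Hnrnpl TPM in R10 progenitors, at 140 to 477 TPM, and stood at 11.9 to 35.3 TPM in numbered stem cells and 510 TPM in the unnumbered R1 library. On R9 it was at 4.11 to 12.5 TPM in both cell types. Coding Hnrnpl TPM was 82.1 ± 11.8 in progenitors and 68.9 ± 8.38 in stem cells. For Hnrnpab the non-coding share was 49.2 to 62.6% in progenitors and 5.99 to 29.4% in all 7 stem cell libraries (-30.3 points, limma adjusted p = 0.00185). A 401-base model of 2 exons accounted for 53.9% of Hnrnpab TPM in R10 progenitors, at 53.9 to 194 TPM, and was listed at 0 in all 7 stem cell libraries. It was listed at 66.0 to 108 TPM in the 4 R9 progenitors and at 0 in both R9 stem cell libraries. Outside progenitors it was listed above 0 in the 3 wild-type day 2 libraries and in the OKS libraries of day 2, and at 0 in every other library. Because TPM divides by length, a short model weighs more in such a share than its reads do.

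Rbm25 (19.2 points higher), Hnrnpr (17.7 higher) and Qk (18.3 lower) complete the 5 largest shares, with limma adjusted p = 0.0115, 0.0209 and 0.0127. For Rbm25 and Hnrnpr the unnumbered R1 library, at 23.9% and 21.8%, lay inside the progenitor ranges of 18.8 to 25.4% and 7.89 to 25%. On R9 the difference had the other sign, -12.1 points in Rbm25 and -11.1 in Hnrnpr. On R10 Ptbp1 had 63.5 to 77.6% non-coding in progenitors and 80.7 to 88.5% in all 7 stem cell libraries. A 783-base model of 2 exons rose from 118 ± 47.8 to 338 ± 76.3 TPM, while coding Ptbp1 TPM was 58.2 ± 4.74 and 75.5 ± 13. That model was at 72.2 to 177 TPM in progenitors, 326 to 403 TPM in numbered stem cells and 180 TPM in the unnumbered R1 library. It was listed at 0 in all day 18 libraries. On R9 it was at 67.6 to 112 TPM in progenitors and at 139 and 211 TPM in stem cells.

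**Figure D4:**
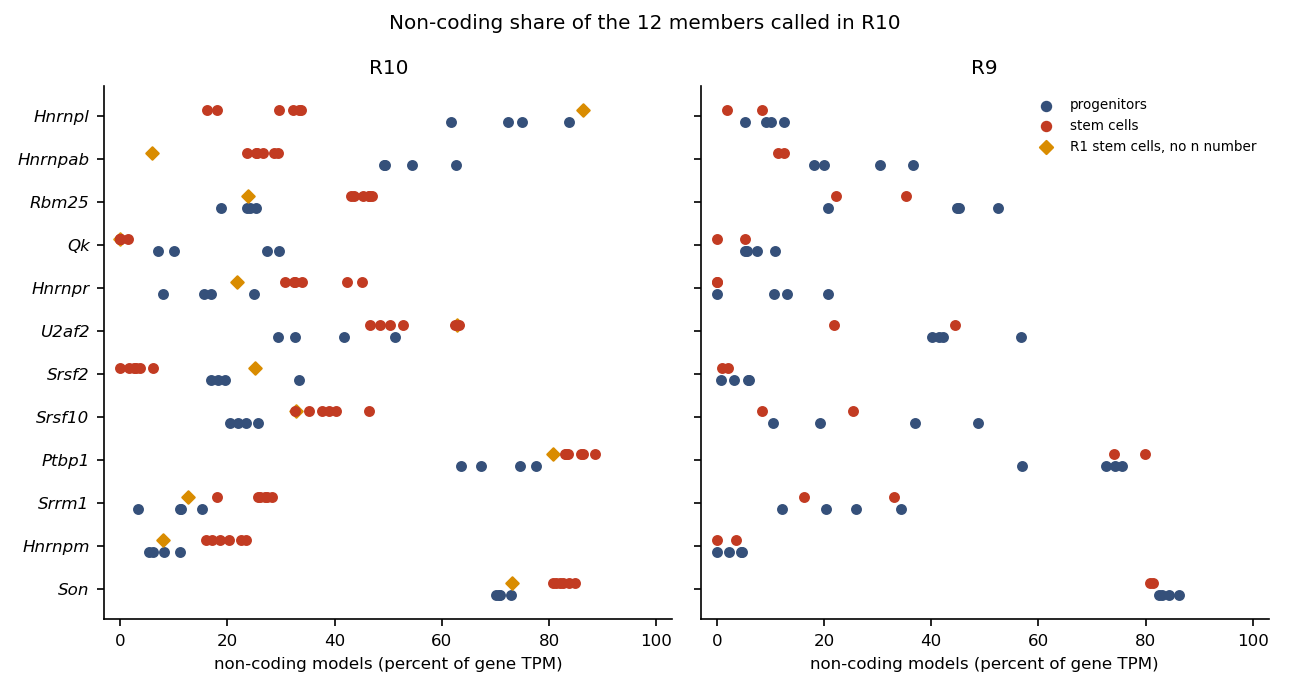
Percent of gene TPM in non-coding models for the 12 members called on R10, in progenitors (blue), stem cells (red) and the unnumbered R1 stem cell library (orange diamond), with R10 at left and R9 at right. On R10 the diamond lies at 86.3% for Hnrnpl, above the progenitors, at 23.9% for Rbm25, among them, and at 80.7% for Ptbp1, between the progenitors and the numbered stem cells.

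The share in models predicted to undergo decay, a measure added after the data had been seen, was called in 4 of 41 members, beside 2.74% of 4852 genes. It was higher in 2, beside 0.515% of genes, and lower in 2, beside 2.23%. Leaving out 1 library at a time gave 1 to 6 members called, so the count depends on single libraries. Qk rose from 0.472 ± 0.427% to 36.7 ± 6.98% (limma adjusted p = 0.000293). Hnrnpk went from 78.0 ± 5.64% to 58.7 ± 8.29%, Srsf10 from 27.0 ± 4.17% to 16.2 ± 2.54% and Hnrnpl from 1.71 ± 1.09% to 13.2 ± 5.92%. The unnumbered R1 library lay inside the progenitor range for Hnrnpk, at 71.2% in 70.9 to 82.7%, and for Hnrnpl, at 0.920% in 0.538 to 3.11%. It was at 23.5% for Qk and 15.4% for Srsf10. On R9 Hnrnpk differed by 2.56 points, the other way. R9 had 1 such call in 42 members, beside 0.394% of 4819 genes, and the unnumbered R1 library 1 in 41, beside 0.819% of 4762 genes. Both were Qk, in the same direction.

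Inclusion of internal exons was measured as the TPM of models that hold the exon over the TPM of these plus models that skip it. Of 328 exons in 37 members, 37 exons in 15 members were called at a limma adjusted p under 0.05 and at least 10 points, beside 12.3% of 17954 exons and 19.5% of 3627 genes. More included in stem cells were 31, beside 9.09% of all exons, and less included were 6, beside 3.22%. Exons of one gene share their models and are not independent. Forms of an exon with different boundaries count as separate exons, and models with the other form enter neither part of the share. Among such pairs are the 107- and 103-base exons of Hnrnpab, the 115- and 76-base exons of Hnrnpc and the 102- and 90-base exons of Hnrnpa2b1. The 37 comprise 21 coding exons of GENCODE, 7 with no wholly coding copy and 9 that GENCODE does not list. On R9, where 3.24% of 19377 exons were called, 6 of the 37, in Hnrnpab, Qk, Tia1 and Tra2a, were called in the same direction. They are 16.2% of the members' R10 calls and 33.3% of their R9 calls, against 17.2% and 60.7% over all exons. With the unnumbered R1 library as the stem cell arm, where 3.63% of 19131 exons were called, 8 were, in Hnrnpa2b1, Hnrnpab and Hnrnpd. They are 21.6% of the members' R10 calls and 72.7% of their calls with that library, against 18.1% and 57.6% over all exons.

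The 3 exons below are shown as examples that the annotation holds, and were chosen after their values had been seen. Each is read from GENCODE M21 transcripts (GRCm38) in the sense of the gene, with the exon in capitals and 15 bases of each spliced neighbour in lower case. Tia1 exon 5 of 13 lies at chr6:86419101-86419133 on the plus strand, Hnrnpm exon 6 of 17 at chr17:33666647-33666685 on the minus strand and Hnrnpab exon 7 of 8 at chr11:51601750-51601890 on the minus strand. All 3 are coding exons, and their lengths of 33, 39 and 141 bases are whole multiples of a codon.
Tia1 33-base exon: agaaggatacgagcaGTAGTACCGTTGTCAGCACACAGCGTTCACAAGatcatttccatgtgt
Hnrnpm 39-base exon: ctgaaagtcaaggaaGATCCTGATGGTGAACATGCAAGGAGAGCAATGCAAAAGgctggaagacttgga
Hnrnpab 141-base exon: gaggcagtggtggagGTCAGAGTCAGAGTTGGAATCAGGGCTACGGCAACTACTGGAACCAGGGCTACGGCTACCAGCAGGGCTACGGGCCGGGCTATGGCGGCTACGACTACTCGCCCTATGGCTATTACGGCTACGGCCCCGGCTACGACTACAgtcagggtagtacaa

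The Tia1 exon printed above was included at 73.3, 73.1, 87.4 and 78.6% in R10 progenitors and at 21.7 to 38.7% in the 7 stem cell libraries, 32.0% in the unnumbered R1 library, without overlap. The difference was -48.8 points (SE 3.89, limma adjusted p = 5.09e-06) on R10 and -76.4 points on R9 (limma adjusted p = 0.00816), where progenitors had 61.6 to 88.1% and both stem cell libraries 0%. With the unnumbered R1 library alone it was -46.1 points (limma adjusted p = 0.0549). The level of Tia1 and the inclusion of this exon were both lower in stem cells in both chemistries. In 2i-LIF it was at 0, 0 and 38.9% on R9 and 29.4 and 0% on R10. In FBS-LIF on R9, OKS cells were at 75.3, 36.8, 58.3, 49.5, 72.0 and 70.8% on days 2, 4, 6, 10, 14 and 20. OKMS cells were at 100, 63.8, 70.8, 14.3, 45.0 and 32.9% on the same days. At day 18 on R10 in that medium it was at 17.1% in OKMS and 52.3% in OKS cells. Mean TPM over the models compared was 17.5 in R10 progenitors and 9.09 in stem cells, so these percentages rest on low levels.

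Qk carried a 296-base exon at chr17:10215179-10215474 on the minus strand that GENCODE does not list. It was listed at 0% in the 8 progenitor libraries, at 36.4 to 57.3% in the 7 R10 stem cell libraries and at 26.8 and 35.1% in the R9 ones. The difference was 50.5 points on R10 (limma adjusted p = 3.16e-06) and 31.0 points on R9 (limma adjusted p = 0.0168). A single model of 2211 bases holds it, which is classified as coding and as a predicted decay target, so in stem cells the Qk decay share above largely counts the same model, which was 36.3% of Qk TPM there on R10, and is no second observation. The files hold 2 decay-predicted models of Qk. In reprogramming cells on R10 the decay share was above 0 where this exon was at 0%, at 11.4% in OKMS cells of day 2, 22.2% at day 4, 6.64% at day 6 and 12.8% at day 10. For the exon itself, cells in reprogramming were listed at 0%, day 18 and day 20 included, except the OKS libraries of day 2, at 7.30% on R9 and 17.6% on R10. The share had no value in the OKS libraries in 2i-LIF, where the models compared were at 0. The model stood at 4.04 ± 1.83 TPM in R10 stem cells and at 1.89 and 1.91 TPM in the R9 ones. The R9 percentages of this exon and of the Qk decay share therefore rest on low levels. The R10 day 18 libraries had 566599 to 780312 gene reads, against 2226725 to 4236442 in R10 stem cells. A value of 0% in reprogramming cells therefore does not show that the exon was absent.

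Hnrnpab had 7 called exons, and the short 2-exon model described above skips all 7. Their inclusion was therefore computed again with that model left out, a measure added after the data had been seen. The 103-base exon was at 32.3 to 43.8% in R10 progenitors and 95.4 to 100% in stem cells with the model, and at 97.6 ± 2.51% and 98.8 ± 2.11% without it. The 247-, 169-, 159- and 132-base exons, with differences of 60.6 to 67.7 points, likewise had progenitor means of 98.2 to 100% without it. These calls repeat the presence of the short model in progenitors. The 107-base exon, which GENCODE does not list, was at 63.7 ± 27.5% and 92.6 ± 13.1% without it. It is a form of the 103-base exon with a common boundary (chr11:51602589-51602695 and 51602593-51602695). Models with the 103-base form are left out of its share, so these percentages are not shares of all Hnrnpab models. The 141-base exon printed above, in the glycine-rich end of the protein, rose from 6.96 ± 1.15% to 24.2 ± 7.19% on R10 (limma adjusted p = 0.0076). Without the short model progenitors had 13.9 to 16.9% and stem cells 16.4 to 34.0%, which overlap. On R9 this exon was at 17.9 to 28.4% in progenitors and at 25.5 and 39.0% in stem cells.

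The Hnrnpm exon rose from 36.2 ± 12.3% to 65.9 ± 14.2% on R10 (limma adjusted p = 0.0285), but the unnumbered R1 library stood at 34.1% and R9 went from 20.5 to 50.6% to 13.2 and 20.8% (-16.6 points, limma adjusted p = 0.695). In reprogramming cells with a cassette it was at 92.8 to 100% in every library, and in wild-type cells of day 2 at 15.4 to 63.7%.

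Further exons were Hnrnpa2b1, whose 136-base exon went from 42.5 ± 6.4% to 12.5 ± 2.65% (-30.0 points, limma adjusted p = 1.37e-05), with the unnumbered R1 library at 8.34%. On R9 it went from 30.3 to 54.8% to 19.4 and 26.5%. Tra2a had a pair of exons less included, by 11.4 points each. On R9 they differed by -62.1 and -61.4 points (limma adjusted p = 0.0278 and 0.0280). Hnrnpc had 5 exons, among them the 115- and 76-base forms of the same exon, and Hnrnph1 4 that were more included. On R9 all 5 Hnrnpc exons differed the other way, by -29.2 to -15.0 points, and none was called there.

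**Figure D5:**
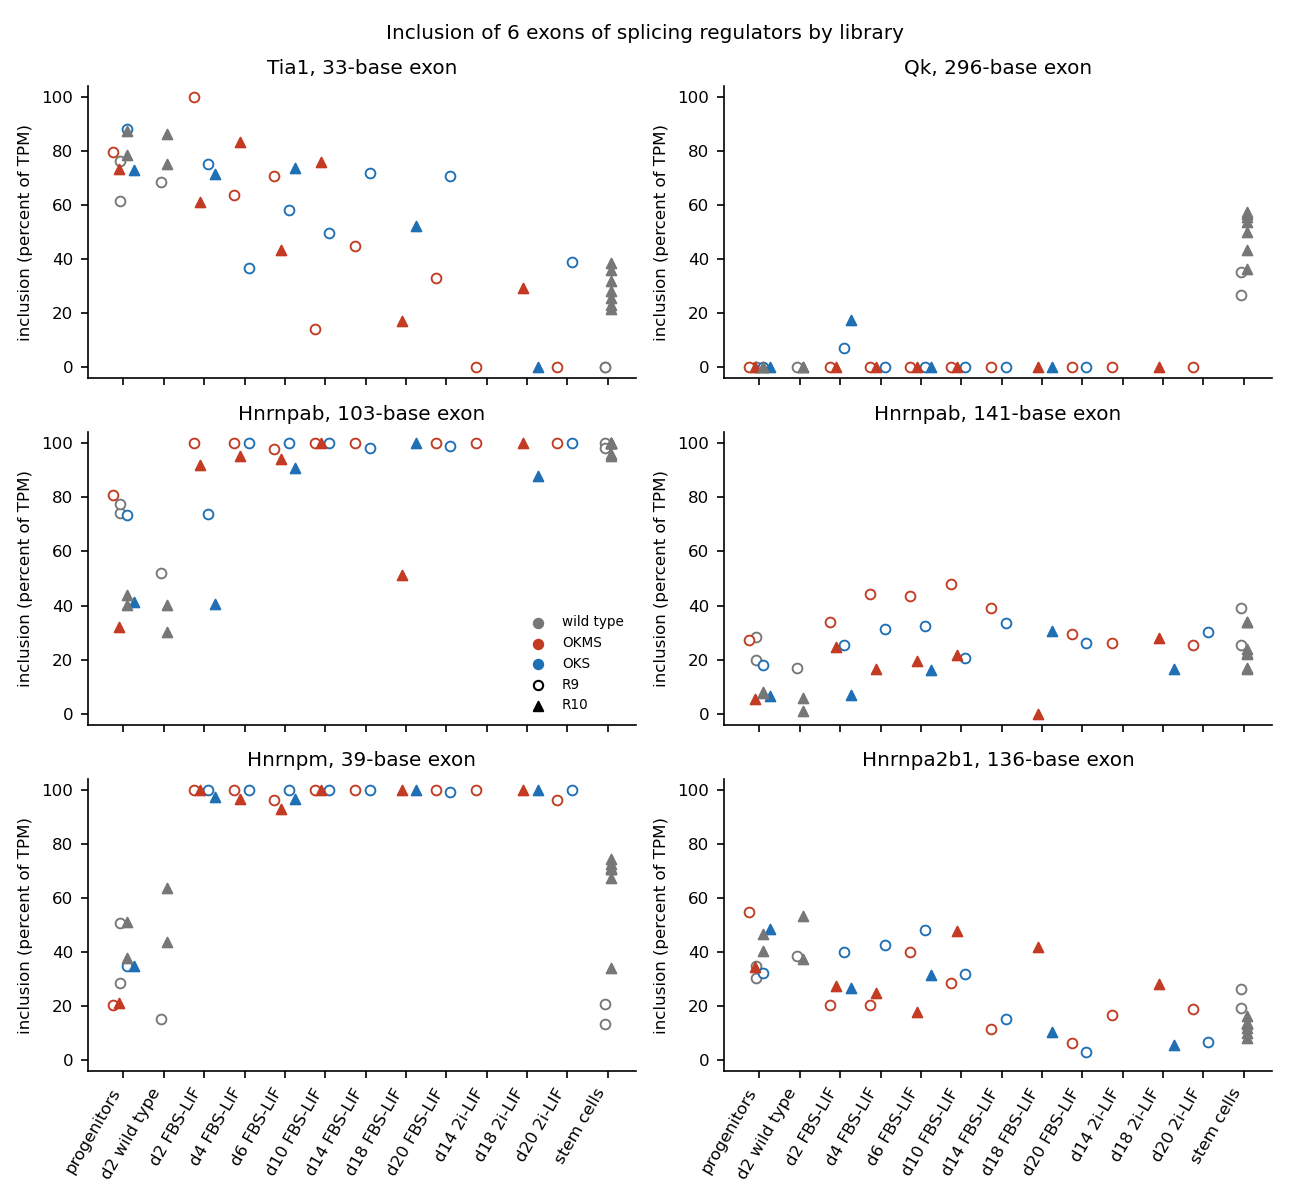
Percent inclusion of 6 exons, by TPM, in the libraries where the models compared were above 0, by condition and day; colour gives the genotype, open circles are R9 and filled triangles R10. The Tia1 exon is at 61.6 to 88.1% in progenitors and 0 to 38.7% in stem cells and spreads over both ranges in reprogramming cells, the Qk exon is at 26.8 to 57.3% in stem cells and 0% in progenitors, and the Hnrnpm exon is at 92.8 to 100% in reprogramming cells with a cassette.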

How the data were processed

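Nanopore cDNA reads were deposited as gene and transcript tables. Minimap2 2.24-r1122 and the build mm10 are named in the submitters' processing notes, the names of the deposited tables give IsoQuant as the quantification tool, and its version and settings are not given in the sources used here. The deposited gene values are CPM, and 100% of them were whole multiples of 1 read within 0.02 reads, so reads were recovered for edgeR and DESeq2 as alternatives. The deposited transcript values are TPM. Reads were not recovered from them, so shares and exon percentages are given without read counts, and a transcript at 0 is called listed at 0. Coding class and predicted decay come from the authors' deposited classification. A further 13 columns of the gene table were not used.

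CPM were tested with limma 3.58.1 (R 4.3.3) on log2(CPM + 1), over genes at 1 CPM or more in as many libraries as the smaller group holds. Log2 differences are on that scale, which understates the change of low genes, while changes written as times, folds or ratios are of CPM. A call needed a Benjamini-Hochberg adjusted p under 0.05 over all genes tested and a log2 difference of at least 1. Shares and exon inclusion, in percent of deposited TPM, were tested in limma for genes or exons at 5 TPM or more, with 10 points as the smallest difference called. Scripts were tested on simulated data. edgeR 4.0.16 and DESeq2 1.42.0 used the recovered reads. Versions of Python (3.11.15), pandas (2.3.3) and matplotlib (3.10.9) are those used for tables and figures.

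The genes and lists were chosen with earlier results of these data known. Named with values are members called on R10 with a log2 difference of at least 2, the 3 largest calls of every other comparison, and the 5 largest shares or exons. Others, among them Elavl1, Tia1, Hnrnpm and Hnrnpab exons, were chosen after their values were seen. Comparisons share libraries: the R9 OKMS and OKS progenitors also serve as day 0, the R10 wild-type libraries of day 2 serve both medium and factors, and the R10 stem cells also serve day 18.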

Additional observations from a re-analysis of the deposited data

Results flagged for a closer look

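Among 84 groups of 4 to 10 libraries tested for a single library far from the rest, 12 stood out, and chance alone flags about 1 in 20. That rate does not hold where the other libraries are all equal, since the test then flags any departure, however small. The unnumbered R1 library accounted for 7 of the 12. In R10 stem cells it was lowest for Elavl1, at 32.1 CPM against 113 to 171 CPM in the others, and for Hnrnpa0, at 41.1 CPM against 204 to 269 CPM. It was highest for Elavl4, at 1.12 CPM against 0 to 0.260 CPM. Among exons, it was highest for the 497-base exon of Hnrnpl, at 78.9% against 1.88 to 31.6%. It was lowest for the 39-base exon of Hnrnpm, at 34.1% against 67.4 to 74.6%, for the 142-base exon of Srsf5, at 0% against 25.2 to 42.1%, and for the 311-base exon of Srsf2, at 92.0% against 98.3 to 100%. The other 5 are in progenitors. Esrp2 had 0.439 CPM, 1 read, in the R10 OKMS progenitors and none in the rest. The 209-base exon of Hnrnpf was at 13.7% in 1 R10 wild-type library against 53.1 to 60.8%. The 311-base exon of Srsf2 was at 98.8% in 1 R9 wild-type library against 100%, and the 135-base exon of Tra2a was at 98.5% in 1 R10 and 82.7% in 1 R9 wild-type library against 100%. In these Esrp2, Srsf2 and Tra2a groups of progenitors the other libraries were all equal.

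The difference between stem cells and progenitors itself differed between chemistries in 2 members by limma's interaction test. For Srsf9 the R9 minus R10 difference was 1.08 (adjusted p = 0.0354), and for Elavl1 it was -1.84 (adjusted p = 0.0476).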

How the results depend on the processing

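Counts of members called moved by over 1.5 times as follows. With the unnumbered R1 library as the only stem cell library, R10 calls went from 21 to 8, non-coding shares from 12 to 1, decay shares from 4 to 1 and genes with a called exon from 15 to 4. With R9 libraries they were 0, 1 and 5 for the shares, decay shares and exons, 0 for the medium (from 13) and 0 for the factors (from 2). The time course, 5 in the report, gave 3 with a pseudocount of 0.25, 8 with median centring, 13 with edgeR and 0 without day 20. The medium gave 20 with centring. The factors gave 1 with a pseudocount of 0.25, 1 with no filter, 0 with quantile normalization, 4 with centring and 4 with edgeR. For 2i-LIF, 3 in the report, edgeR gave 6 and the R10 pairs 0. Day 18, 6 in the report, gave 3 with a minimum of 5 CPM and 1 each with edgeR and DESeq2. The test between chemistries, 2 in the report, gave 1 with a pseudocount of 0.25 and 5 without the unnumbered R1 library. The causes were not tested.

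Leaving out 1 library at a time gave 18 to 22 calls on R10, 7 to 10 on R9, 1 to 6 in the time course, 4 to 9 for OKMS against OKS, 0 to 1 for the medium, 0 to 0 for the factors, 2 to 5 for 2i-LIF and 3 to 6 for day 18. It gave 6 to 12 non-coding shares, 1 to 6 decay shares and 11 to 18 genes with a called exon. In the time course, the count was 1 without the OKS library of day 20 or either library of day 2, 2 without the OKMS library of day 20 or the OKS library of day 14, and 3 without the OKMS library of day 14 or the OKS library of day 4. Without the OKMS pair of day 18 the 2i-LIF comparison gave 5, and without the OKMS cells the day 18 comparison gave 3. Non-coding shares numbered 6 without the OKS progenitors and 7 without wild-type progenitor replicate 2 or R1-Clone3 replicate 1.

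Without OKS progenitors Mbnl2 in the time course was at 2.21, with its sign kept. Signs turned for Hnrnpa0 (-0.97), Son (0.0033) and Srrm2 (0.18) with the unnumbered R1 library alone, for Mbnl2 in the time course (-2.05 without the OKMS library of day 20, -1.71 without OKMS progenitors) and for Ptbp2 in the medium on R9 (0.19). Non-coding shares turned on R9 for Hnrnpm (-1.09 points), Hnrnpr (-11.1), Rbm25 (-12.1), Son (-2.93), Srsf10 (-11.98) and U2af2 (-11.96), and with the unnumbered R1 library for Hnrnpl (13.1) and Srsf2 (3.18). Decay shares turned for Hnrnpk on R9 (2.56) and Hnrnpl with that library (-0.788). Alternatives were run for 1 or more called exons of each gene, and of these exons turned on R9 for Hnrnpk (-9.77), the 115-base exon of Hnrnpc (-29.2), Srrm2 (11), Hnrnpm (-16.6) and the 497-base exon of Hnrnpl (13.5), and with that library for Hnrnpm (-2.13) and Hnrnpl (11.8). Outside these, the other 4 Hnrnpc exons and the 108-base exon of Hnrnpa2b1 (-46.2) also had the other sign on R9. Of single values under all alternatives, 871 of 1073 gene values, 161 of 256 shares and 240 of 304 exons kept direction and call.

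Wild-type R10 libraries of the medium share replicate numbers. The deviations of same-numbered libraries had a correlation of 0.474 over 2 pairs, which does not establish pairing, and the fit with a replicate block gave 17 calls against 13. At R9 depth, levels under 2.16 to 6.69 CPM are not told from 0.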
